A study of Mus musculus with 6 samples.

Results

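The Hedgehog pathway components described here were *Gli1*, *Gli2*, *Gli3*, *Ptch1*, *Smo*, *Hhip*, *Sufu*, *Boc* and *Gas1*, chosen by gene symbol, and all 9 were found among the 25140 genes of the count table. The cells were labelled primary cardiac fibroblasts of C57BL/6 mice, isolated from adult heart and used at passage 1, and the text of the study also calls them embryonic fibroblasts. At near-confluence both groups were moved from full-serum DMEM with 25 mM glucose to 1% FBS for 16 h. The TGFβ group then received 10 ng/ml TGFβ for 24 h and the vehicle group did not, with 3 libraries in each group and no genetic change named in the labels. TGFβ drives fibroblasts towards contractile, matrix-producing myofibroblasts, and the design asks which transcripts change along with that differentiation. Libraries are called A, B and C within each group, from the largest total count to the smallest, so a letter does not pair a vehicle library with a TGFβ library.

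Hedgehog ligands are lipid-modified secreted proteins. PTCH1 holds the membrane protein SMO inactive until ligand binds it together with the co-receptors GAS1, BOC and CDON. Active SMO, which works at the primary cilium, releases the GLI transcription factors from SUFU, and GLI proteins then raise *Gli1*, *Ptch1* and *Hhip*, whose transcripts are the usual readout of the pathway. GLI1 acts as an activator, GLI3 is largely cut to a repressor, and GLI2 can be either. In the heart, Hedgehog signaling is known from coronary vessel growth and from interstitial fibroblasts that respond to it.

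The libraries held 27851677 to 31072338 counts, and 14334 genes passed a filter on low counts and were tested with edgeR. Of the genes listed as TGFβ responders, 8 of 11 rose, among them *Ltbp2*, *Postn* and *Ccn2*, and 0 fell. Over all genes tested, 20.5% rose and 20.1% fell at an adjusted p under 0.05. Of 9 fibroblast markers, 7 fell, among them *Pdgfra* and *Tcf21*, while *Col1a1* stood at 18825 to 24935 CPM (gene counts per TMM-scaled library size, as the cpm function of edgeR gives them) in the 6 libraries. Markers of other heart cells were also read, and none of the 8 endothelial markers was called (summed level 453 to 699 CPM in vehicle and 417 to 572 CPM in TGFβ libraries). The 7 leukocyte markers tested included 1 that fell (*Cd14*), with summed levels of 251 to 362 CPM and 215 to 322 CPM. Mural markers summed to 250 to 284 CPM in vehicle and 135 to 165 CPM in TGFβ libraries, a difference carried by *Notch3*, while *Cspg4* rose. The endothelial marker *Cdh5* was highest in library B of each group (271 CPM in vehicle and 203 CPM in TGFβ libraries). So were the other endothelial markers except *Tek*, which was lowest there (74.6 CPM in vehicle and 83.8 CPM in TGFβ libraries). No mesothelial, cardiomyocyte or Schwann cell marker was called. In such bulk samples, fewer cells of a type and less RNA per cell cannot be told apart, and the part of these other cells in the results below was not tested.

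Of the 9 Hedgehog components, 7 passed the filter. After TGFβ the co-receptor *Gas1* was 3.04-fold lower, the cytoplasmic inhibitor *Sufu* 1.16-fold lower and the co-receptor *Boc* 1.40-fold higher. *Ptch1*, *Smo*, *Gli2* and *Gli3* were not called, and *Gli1* and *Hhip* were at the edge of detection in both groups. Thus 1 of the 7 was called higher and 2 were called lower at an adjusted p under 0.05, beside 20.5% higher and 20.1% lower over all genes tested (40.7% in either direction). The median log2 fold change of the 7 was -0.13, beside -0.0013 over all genes tested.

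**Figure D1:**
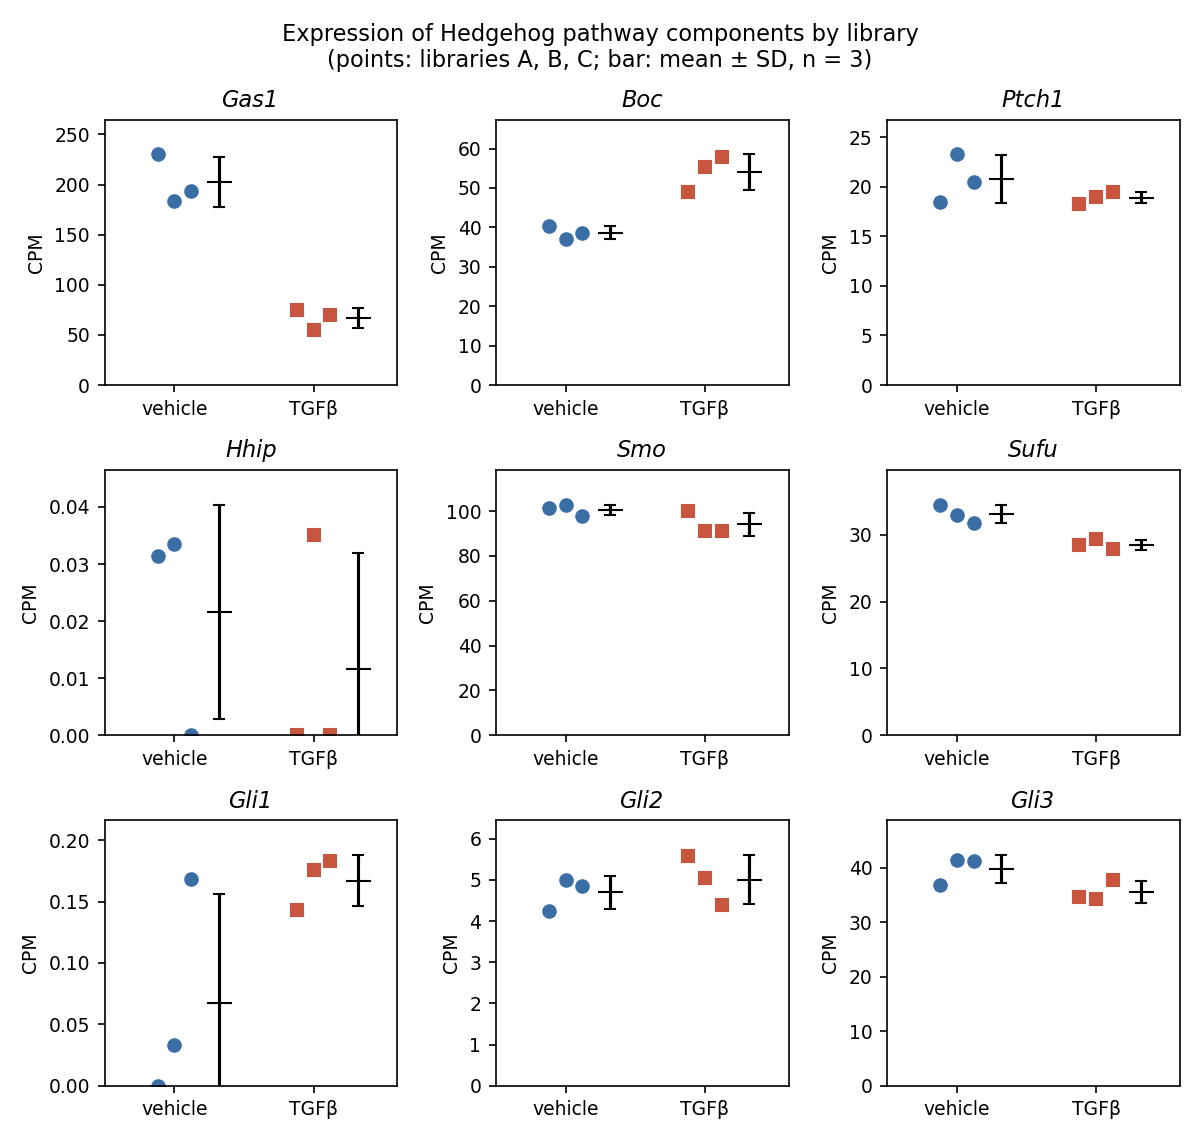
CPM of each of the 9 Hedgehog components in each library, on linear axes that start at 0 (blue circles, vehicle, and red squares, TGFβ, with the black bar giving mean ± SD of 3 libraries). *Gas1*, *Sufu* and *Boc* separate the groups, the other 6 overlap, and the axes of *Gli1* and *Hhip* end far below 1 CPM.

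*Gas1*, the membrane-anchored co-receptor first known as a gene of growth-arrested fibroblasts, stood at 230, 184 and 193 CPM in vehicle libraries A, B and C and at 74.7, 55.4 and 69.8 CPM in TGFβ libraries A, B and C. Every TGFβ library lay below every vehicle library, as it did for *Sufu*, and *Boc* had the groups apart in the other direction. Groups did not overlap in 53.3% of all genes tested. The means were 202 ± 24.6 and 66.6 ± 10.0 CPM (SD, n = 3), and the log2 fold change was -1.60 (SE 0.12, adjusted p = 6.78e-05, edgeR). In size, this change exceeded that of 97.3% of genes tested. Leaving out any 1 library kept the log2 fold change of *Gas1* between -1.70 and -1.49. The gene lies on the minus strand at chr13:60174405-60177365 (GRCm38). Of its 75-base windows, read on both strands, 15.4% also occur in transcripts of other genes, which can include antisense ones. The antisense lincRNA *Gm48488* overlaps its exons, but the counts of that lincRNA came to 0.108% of those of *Gas1*.

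*Boc*, an immunoglobulin-family co-receptor that binds ligand alongside PTCH1, moved the other way. It stood at 40.4, 37.2 and 38.5 CPM in vehicle libraries A, B and C and at 49.0, 55.4 and 57.8 CPM in TGFβ libraries A, B and C. The lowest TGFβ library was above the highest vehicle library. Means were 38.7 ± 1.63 and 54.0 ± 4.51 CPM (SD, n = 3), with a log2 fold change of 0.48 (SE 0.07, adjusted p = 0.00104, edgeR). *Boc* is at chr16:44485049-44558897 on the minus strand. Its relative *Cdon*, which is outside the 9 and was looked at because it shares this role, also rose, from 170 ± 3.30 to 211 ± 14.97 CPM (SD, n = 3), with a log2 fold change of 0.31 (SE 0.06, adjusted p = 0.00368, edgeR).

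Since levels of different genes can be compared only per length, CPM were divided by the kilobases of each gene's longest transcript to describe how the 3 co-receptors make up their sum, a set put together after the fold changes were seen. In the vehicle group, *Gas1* gave 68.4 ± 2.15% of the sum, *Cdon* 22.8 ± 1.77% and *Boc* 8.74 ± 0.41% (SD, n = 3). In the TGFβ group, *Gas1* gave 35.8 ± 3.36%, *Cdon* 44.8 ± 1.13% and *Boc* 19.4 ± 2.27%, so *Cdon* took the place of *Gas1* as the largest share. None of these shares overlapped between groups, and each had an exact permutation p of 0.1, which is the smallest that 3 libraries against 3 can give. That separation follows from the fold changes already seen when the set was put together, so it adds no test of its own. The 3 shares also depend on each other, since a fall in the share of *Gas1* raises the others. *Cdon* itself rose by 0.31 on the log2 scale. The sum itself fell from 99.8 ± 8.89 to 62.7 ± 4.86 CPM per kb (SD, n = 3, exact permutation p = 0.1), the fall of *Gas1* exceeding the gains of *Boc* and *Cdon* on this scale.

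**Figure D2:**
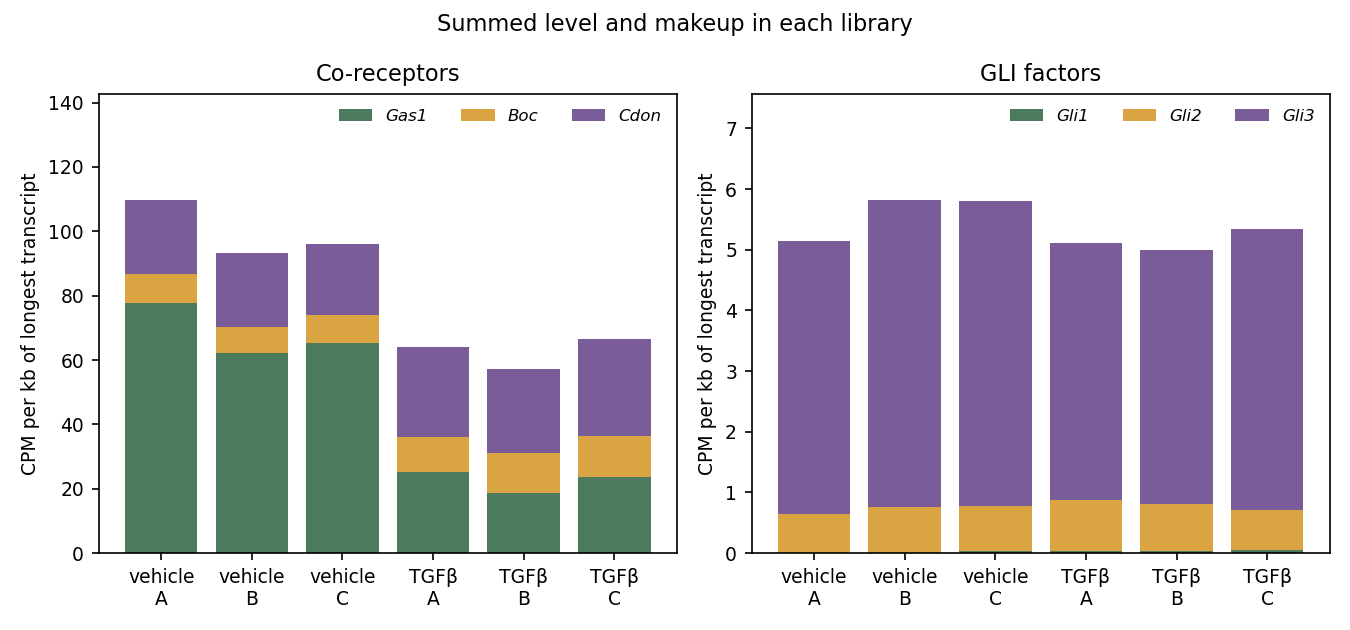
Stacked bars of the level per kb of longest transcript (CPM per kb, linear axis from 0) in each of the 6 libraries, for the co-receptors on the left and the GLI factors on the right. The *Gas1* segment is the largest in each vehicle library and the *Cdon* segment the largest in each TGFβ library, whereas *Gli3* is the largest GLI segment in all 6.

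Promoter windows of *Gas1*, the component that changed most, and of *Ptch1*, the classical GLI target among them, are shown so that the searched letters can be seen in place. RefSeq promoter windows (250 bases before to 50 after the start, GRCm38.p6) were at hand for 7 of the 9 components. Those of *Gli1* and *Boc* were missing and were not searched. The GLI consensus GACCACCCA, read on both strands, was in 0 of the 7, and in 0.253% of 32851 promoters. With at most 1 mismatch it was still in 0 of the 7, and in 6.74% of all. The SMAD element CAGAC, read on both strands, was in the windows of *Gli2*, *Gli3*, *Ptch1* and *Smo*, that is 4 of 7, and in 49.6% of all promoters. The mismatch and SMAD searches were added after the expression values were seen. The 250 bases before each start follow, 5′ to 3′ on the gene's strand, with SMAD elements in capitals (as GTCTG where on the other strand). The *Gas1* window is chr13:60177536-60177785 and the *Ptch1* window is chr13:63565736-63565985, both on the minus strand. The *Ptch1* window lies inside the annotated gene (chr13:63508328-63573598). It thus precedes an internal start, and the bases before the outermost start of *Ptch1* were not searched. The *Gli3* window (chr13:15463473-15463722, plus strand) likewise lies inside its gene, which begins at 15463235. The *Gas1* window stops at 60177536, short of the annotated start at 60177365, so the bases next to that start were not all searched.
Gas1: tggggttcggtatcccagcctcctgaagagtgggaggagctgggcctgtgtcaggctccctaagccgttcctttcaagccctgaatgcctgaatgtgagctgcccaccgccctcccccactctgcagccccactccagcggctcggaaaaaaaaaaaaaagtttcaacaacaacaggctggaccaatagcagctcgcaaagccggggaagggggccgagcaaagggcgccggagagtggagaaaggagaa
Ptch1: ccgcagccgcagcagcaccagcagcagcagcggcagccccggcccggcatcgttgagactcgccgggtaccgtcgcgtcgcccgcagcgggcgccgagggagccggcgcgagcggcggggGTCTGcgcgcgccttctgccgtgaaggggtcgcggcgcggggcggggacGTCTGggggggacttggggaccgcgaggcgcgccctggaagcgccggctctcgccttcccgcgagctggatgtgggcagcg
The *Gas1* window held no SMAD element, and that of *Ptch1* held 2, which begin 130 and 81 bases before the start.

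*Ptch1*, the receptor and itself a GLI target, stood at 18.4, 23.3 and 20.5 CPM in vehicle libraries A, B and C and at 18.3, 19.0 and 19.4 CPM in TGFβ libraries A, B and C. The groups overlapped, with vehicle library B highest and vehicle library A within the TGFβ range. Means were 20.7 ± 2.42 and 18.9 ± 0.58 CPM (SD, n = 3), and the log2 fold change of *Ptch1* was -0.13 (95% interval -0.34 to 0.07, adjusted p = 0.260, edgeR). The gene is at chr13:63508328-63573598 on the minus strand.

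*Hhip*, a decoy receptor that GLI factors induce, had counts of 1, 1 and 0 in vehicle libraries A, B and C and of 0, 1 and 0 in TGFβ libraries A, B and C. With 2 counts against 1, the depth-scaled ratio of TGFβ over vehicle was 0.545, and its 95% interval of counting error ran from 0.00924 to 10.5. *Hhip* lies at chr8:79965851-80058006 on the minus strand.

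*Gli1*, the activator whose transcript reads out the pathway most directly, had counts of 0, 1 and 5 in vehicle libraries A, B and C and of 4, 5 and 5 in TGFβ libraries A, B and C. Vehicle library C alone held 5 of the 6 vehicle counts and lay within the TGFβ range. With 6 counts against 14, the depth-scaled ratio was 2.54, and its 95% interval of counting error, 0.918 to 8.07, included no change. Tested without the filter, *Gli1* had an adjusted p of 0.336 (edgeR). *Gli1*, at chr10:127329882-127341974 on the minus strand, shares exon sequence with *Arhgap9* on the other strand, whose level of 0.621 CPM was above that of *Gli1*, and whether strand was used in counting is not given in the sources used here.

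*Smo*, the signal transducer, came after *Gas1* in vehicle libraries and above it in every TGFβ library in CPM. It stood at 101, 102 and 97.8 CPM in vehicle libraries A, B and C and at 100.1, 91.0 and 91.1 CPM in TGFβ libraries A, B and C. Only TGFβ library A reached the vehicle range. The log2 fold change of *Smo* was -0.10 (95% interval -0.21 to 0.02, adjusted p = 0.159, edgeR), and without TGFβ library A it was -0.14 and called (adjusted p = 0.0493). *Smo* is at chr6:29735503-29761365 on the plus strand.

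*Sufu*, which holds GLI proteins in the cytoplasm, stood at 34.5, 33.0 and 31.8 CPM in vehicle libraries A, B and C and at 28.4, 29.3 and 27.8 CPM in TGFβ libraries A, B and C. The gap between the groups was narrow but present. Means were 33.1 ± 1.36 and 28.5 ± 0.76 CPM (SD, n = 3), with a log2 fold change of -0.21 (SE 0.05, adjusted p = 0.0107, edgeR). At an adjusted p under 0.01 this call of *Sufu* was lost and *Gas1* was the 1 component called lower. In size, the change of *Sufu* exceeded that of 51.1% of genes tested, against 78.4% for *Boc*. *Sufu* lies at chr19:46396896-46488804 on the plus strand.

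*Gli3*, the main source of repressor, stood at 36.8, 41.4 and 41.2 CPM in vehicle libraries A, B and C and at 34.6, 34.2 and 37.8 CPM in TGFβ libraries A, B and C. Vehicle library A lay below TGFβ library C, so the groups overlapped. The log2 fold change of *Gli3* was -0.16 (95% interval -0.31 to -0.02, adjusted p = 0.0764, edgeR), and without vehicle library A it was -0.22 and called (adjusted p = 0.0306). *Gli3* is at chr13:15463235-15730026 on the plus strand.

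*Gli2* was lower than *Gli3* throughout, with 4.24, 4.995 and 4.86 CPM in vehicle libraries A, B and C and 5.59, 5.05 and 4.39 CPM in TGFβ libraries A, B and C. The groups overlapped, and the log2 fold change of *Gli2* was 0.09 (95% interval -0.20 to 0.39, adjusted p = 0.593, edgeR). *Gli2* is at chr1:118834132-119053619 on the minus strand. Per kb of longest transcript, *Gli3* gave 87.1 ± 0.46% of the summed GLI level in vehicle and 84.5 ± 2.04% in TGFβ libraries (SD, n = 3, exact permutation p = 0.2). *Gli2* gave 12.6 ± 0.25% and 14.7 ± 2.10% (n = 3, exact permutation p = 0.4), and *Gli1* 0.286 ± 0.379% and 0.800 ± 0.095% (n = 3, exact permutation p = 0.2). The ranges of each GLI share overlapped between the groups. Since 3 libraries against 3 can give no permutation p under 0.1, this test cannot decide whether the shares differ.

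The components covered a wide range of levels. In vehicle libraries the order per kb of longest transcript was *Gas1* (68.4 CPM per kb), *Smo* (26.6), *Boc* (8.69), *Sufu* (7.32), *Gli3* (4.87), *Ptch1* (2.00), *Gli2* (0.708), *Gli1* (0.0166) and *Hhip* (0.00239), and of these neighbours only *Gli1* and *Hhip* had overlapping ranges. In TGFβ libraries *Smo* (24.9 CPM per kb) and *Gas1* (22.5) overlapped at the top and the order below was the same, with *Gli1* and *Hhip* no longer overlapping. On this scale *Gas1* moved from the 94.3 percentile of the tested genes to the 81.1 percentile. With summed exon length in place of the longest transcript, *Sufu* (4.30 CPM per kb) and *Gli3* (4.15) overlapped in the vehicle group. Their ranges there were 4.13 to 4.49 and 3.84 to 4.32 CPM per kb. In TGFβ libraries *Gas1* (18.7 to 25.2 CPM per kb) then stayed above *Smo* (16.2 to 17.8), and *Sufu* and *Gli3* overlapped. The overlap of *Smo* and *Gas1* and the separation of *Sufu* from *Gli3* thus depend on the length used.

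**Figure D3:**
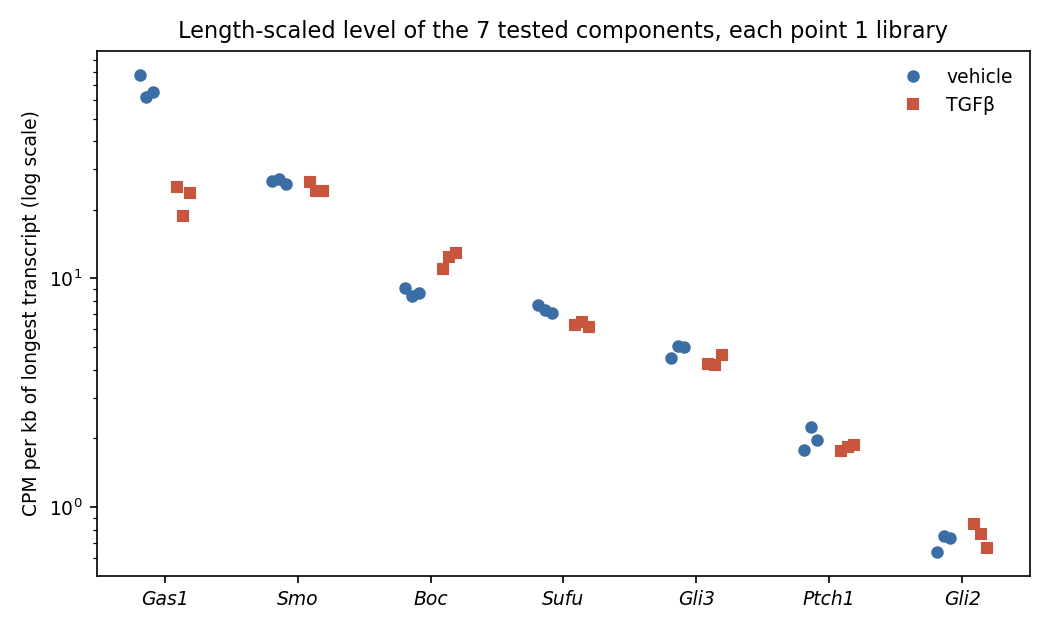
Level of the 7 tested components in CPM per kb of longest transcript on a log axis, each point 1 library (blue circles, vehicle, and red squares, TGFβ). *Gas1* drops from 68.4 to 22.5 CPM per kb, to the level of *Smo* on this choice of length, while the order of the other components is the same in both groups.

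Transcripts of the ligands *Shh* and *Ihh* were at or near 0, and those of *Dhh* were low but tested. *Shh* had 1 count in all, in TGFβ library A. *Ihh* had counts of 0, 1 and 2 in vehicle libraries A, B and C and of 3, 2 and 4 in TGFβ libraries A, B and C, and the interval of its ratio (3.27, 95% counting interval 0.816 to 18.8) included no change. *Dhh*, the ligand with the most counts, had a mean of 1.48 ± 0.40 CPM in vehicle and 1.24 ± 0.04 CPM in TGFβ libraries (SD, n = 3), and its log2 fold change of -0.25 was not called (adjusted p = 0.397, edgeR). Of the 8 ligand and release genes, 6 were tested, 2 rose and 1 fell, beside 20.5% higher and 20.1% lower over all genes tested. The acyltransferase *Hhat*, which puts palmitate on the ligands, rose from 7.74 ± 0.17 to 13.7 ± 0.77 CPM (SD, n = 3), a log2 fold change of 0.83 (SE 0.07, adjusted p = 0.000114, edgeR). Among the SCUBE proteins, which help release ligand, *Scube1* rose from 0.405 to 0.883 CPM (log2 fold change 1.12, adjusted p = 0.00712, edgeR) and *Scube3* fell from 5.01 to 3.10 CPM (-0.69, adjusted p = 0.00900). *Scube1* had few counts, 12 to 13 in vehicle and 22 to 30 in TGFβ libraries. It did not pass a filter of at least 1 CPM in 3 libraries. The log2 fold change of *Scube2* was -0.73 (adjusted p = 0.0825) and that of *Disp1*, which exports the ligands, was -0.10 (adjusted p = 0.277).

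Of the other receptors and co-receptors, 4 of 5 listed genes were tested, 1 rose (*Cdon*) and 2 fell, among them *Gpc3*. Over all genes tested, 20.5% were higher and 20.1% lower. *Gpc3*, a glypican that competes with PTCH1 for ligand, fell from 21.7 ± 5.05 to 11.2 ± 2.77 CPM (SD, n = 3), a log2 fold change of -0.95 (SE 0.22, adjusted p = 0.0104, edgeR). The endocytic co-receptor *Lrp2* was high in vehicle library A (5.78 CPM) and TGFβ library C (10.3 CPM) and at 0.877 to 2.07 CPM in the others. The mesothelial marker *Wt1* was likewise highest in those libraries (6.76 and 7.27 CPM, against 0.978 to 2.78 CPM).

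Of 23 tested regulators of SMO and GLI, 12 were not called, 5 rose and 6 fell, beside 20.5% higher and 20.1% lower over all genes tested, and the median log2 fold change was 0.07. Among kinases that phosphorylate GLI proteins for processing, *Csnk1a1*, *Gsk3b* and the protein kinase A subunit *Prkacb* rose by 0.21, 0.18 and 0.27 on the log2 scale, and the other subunit *Prkaca* fell by 0.17. *Dyrk2*, also a kinase of GLI proteins, rose from 54.2 ± 3.11 to 77.4 ± 4.97 CPM (SD, n = 3), with a log2 fold change of 0.51 (adjusted p = 0.000513, edgeR). *Evc*, part of the ciliary complex that passes the signal on from SMO, fell from 42.0 ± 3.50 to 30.0 ± 2.75 CPM (SD, n = 3), with a log2 fold change of -0.49 (adjusted p = 0.00288, edgeR), and its partner *Evc2* and the ciliary kinesin *Kif7* fell by 0.16 and 0.26 on the log2 scale. Of 20 primary cilium genes tested, 0 rose and 3 fell (*Ift27*, *Ift140* and *Bbs2*), beside the same 20.5% and 20.1%, and the median was -0.11.

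Of 10 tested GLI target genes outside the 9 components, 1 rose and 6 fell, beside 20.5% higher and 20.1% lower over all genes tested. Their median log2 fold change was -0.49. *Ccnd1*, which encodes cyclin D1, fell from 72.1 ± 9.47 to 31.5 ± 2.91 CPM (SD, n = 3), a log2 fold change of -1.19 (SE 0.10, adjusted p = 0.000118, edgeR). *Mycn*, *Bcl2* and *Foxm1* fell by 0.99, 0.89 and 0.49 on the log2 scale, and *Foxf2*, a forkhead factor of mesenchyme, rose by 0.58. Also called lower were *Igfbp6* and *Cntfr*, with log2 fold changes of -0.49 and -0.71. *Foxf1*, *Foxl1* and *Ccnd2* were not called. *Ccnd1*, *Mycn*, *Bcl2* and *Foxm1* act in the cell cycle and cell survival and answer to GLI and to many other signals. Whether GLI activity had a part in their falls was not tested. Among the components that are GLI targets, *Ptch1* was not called, and *Gli1* and *Hhip* had too few counts to pass the filter. List genes named here with a log2 fold change under 1 in size, other than the ligands, were chosen after their values were seen.

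The genes nearest to *Gas1* in pattern, by Euclidean distance between centred log2 CPM over the 6 libraries among 10372 others with a mean of at least 5 CPM, were *Clca3a1*, *Abca1* and *Ncald*. *Clca3a1* went from 246 to 80.3 CPM, *Abca1* from 87.9 to 33.5 CPM and *Ncald* from 11.1 to 4.07 CPM, and *Clca3a1* has close paralogs, so its counts are uncertain. The genes nearest to *Ptch1* were *Sap30* (8.41 to 7.59 CPM), *Cdan1* (10.9 to 10.3 CPM) and *Cyth1* (14.1 to 13.5 CPM).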

How the data were processed

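RNA-seq was performed on 3 vehicle and 3 TGFβ libraries. The authors enriched poly(A) RNA for stranded libraries, read single ends (75 bases), used mm10 and DESeq2, and deposited whole-number counts per gene and library without normalization. The aligner, counter and annotation are not given in the sources used here. The deposited columns of the authors' own comparison (mean, fold change, statistic, p-values) were not used, and the ATAC-seq data were not analysed here. The 6 count columns name the group only, so p-values measure the spread between these libraries, which the study calls biological replicates. No replicate pair agreed within sampling noise (chi-square per gene 7.95 to 27.1).

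Low counts were filtered with filterByExpr by group, and libraries were scaled with TMM and tested with the quasi-likelihood method of edgeR 4.0.16 (R 4.3.3), with Benjamini-Hochberg adjustment over 14334 genes. CPM are counts over TMM-scaled library sizes. The two-sided exact permutation tests use CPM or shares. At these depths counting error limits *Gli1*, *Hhip*, *Shh* and *Ihh*, and the intervals given for counts cover counting error only. Positions and lengths came from GENCODE M21 (GRCm38), to which 25086 genes matched. The steps were tested on simulated data. Alternatives were other scalings, filters, thresholds, DESeq2 1.42.0, limma-voom (limma 3.58.1), leaving out each library, and summed exon length. The components and gene lists were chosen with earlier results of these data known. Genes named are the 9 components, the ligands, called pathway-list genes that changed by 1 or more on the log2 scale, and the 3 genes nearest in pattern to *Ptch1* and *Gas1* (not *Gli1*, whose counts were too few). Others were named after their values were seen, and some listed genes that are counted are not reported here by name.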

Additional observations from a re-analysis of the deposited data

How the results depend on the processing

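All values of the 7 tested components kept their direction, and 82 of 84 also kept their call. The exceptions were *Gli3* without vehicle library A (-0.22, adjusted p = 0.0306, edgeR) and *Smo* without TGFβ library A (-0.14, adjusted p = 0.0493). Leaving out 1 library moved *Gli3* between -0.22 and -0.13 and *Smo* between -0.145 and -0.0737. It moved *Ptch1* between -0.21 and -0.04, *Gli2* between 0.0065 and 0.18 and the ligand *Dhh* between -0.36 and -0.01, none of them called. At an adjusted p under 0.01, 3595 genes and 1 component lower were called. With a filter of at least 1 CPM in 3 libraries, 1 ligand and release gene was higher, 1 other receptor lower and 5 cilium genes lower. Upper quartile scaling also called 5 cilium genes lower, and DESeq2 called 1 other receptor lower. Leaving out 1 library gave 4489 to 5481 genes called and 2 to 3 components lower. The same step gave 1 to 2 ligand and release genes lower (2 without vehicle library A, which adds *Scube2*) and 1 to 2 other receptors lower (2 without TGFβ library B). It gave 3 to 5 regulators lower (3 without vehicle library A or TGFβ library C) and 0 to 3 cilium genes lower (0 without vehicle library C, 1 without vehicle library A). With summed exon length, vehicle levels were 17.9 CPM per kb for *Smo*, 4.30 for *Sufu*, 4.15 for *Gli3* and 1.46 for *Ptch1*. For these genes the same CPM were divided by a longer length. The cause of the shifts under the other alternatives was not tested. No paired analysis was possible because the count columns carry no replicate number. Some libraries of the 2 groups share high marker levels (*Cdh5*, *Wt1*), and whether they come from the same cultures was not tested.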
